A study of Mus musculus with 8 samples.

Results

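The genes described here are those of the liver X receptor (LXR) pathway and of lipid efflux named Apoa1, Apoe, Apoc2, Abca1, Abcg1, Nr1h2, Nr1h3, Mylip and Lpcat3. Each was found by its exact symbol in the deposited expression table, and all 9 had a row among 20484 gene symbols. A filter of at least 1 RPKM (read counts scaled to transcript length and to the mapped reads of the library) in at least 2 of the 8 libraries kept 6 of the 9 genes and 9975 genes in all. Apoa1, Abca1 and Nr1h3 did not pass it.

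RNA was measured in RN2 cells, which are murine acute myeloid leukaemia cells of the C57BL/6J strain engineered with the MLL-AF9 fusion and a mutant NRAS. The groups were RN2 cells given RVX-208, OTX-015 or BBC1115, and RN2 cells given the solvent DMSO, with 2 libraries in each of the 4 groups. RVX-208 (apabetalone) and OTX-015 (birabresib) are inhibitors of the BET proteins, readers of acetylated histones that help to drive transcription; RVX-208 prefers the second of their paired bromodomains, while OTX-015 binds both. BBC1115 is a code name, and the series it belongs to concerns small molecules that target BET proteins. Both oncogenes were present in every group, DMSO included, and no dose or treatment time is given in the labels, so compounds are set side by side at exposures that cannot be matched. Libraries of 1 group are labelled as biological replicates, with nothing said of separate cultures, so the p-values below measure the spread between these libraries.

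LXRs are nuclear receptors that are switched on by oxidised cholesterol and bind DNA as a pair with a retinoid X receptor (RXR). In macrophages and liver they raise genes that move cholesterol out of the cell: the membrane pumps ABCA1 and ABCG1, and apolipoproteins that accept the lipid outside. Their targets also include MYLIP, a ubiquitin ligase that limits lipoprotein uptake, and LPCAT3, which puts polyunsaturated chains into membrane phospholipids. RVX-208 is known for raising apolipoprotein A1, the main protein of high-density lipoprotein, in liver cells.

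The RPKM values of a library summed to between 375973 and 467673, and between 9291 and 9648 genes reached 1 RPKM. The table holds no counts. The library size at which low values of long genes most often equalled a single read put the depth at about 10900000 to 18000000 reads per library. All 9 markers fixed for the labelled leukaemia cells reached 1 RPKM, whereas none of 9 hepatocyte markers and 2 of 11 macrophage markers, Adgre1 among them, did so in any library.

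The promoter windows of Abca1, Apoe, Apoc2, Nr1h2 and Mylip are shown first, because LXR and other factors act on such regions. They are RefSeq sequences on the build GRCm38.p6, the 250 bases before the annotated start, written 5′ to 3′ along the gene, and for Apoe the most upstream of its 3 windows. Capitals mark matches to a searched motif.
Abca1, chr4:53159896-53160145, minus strand: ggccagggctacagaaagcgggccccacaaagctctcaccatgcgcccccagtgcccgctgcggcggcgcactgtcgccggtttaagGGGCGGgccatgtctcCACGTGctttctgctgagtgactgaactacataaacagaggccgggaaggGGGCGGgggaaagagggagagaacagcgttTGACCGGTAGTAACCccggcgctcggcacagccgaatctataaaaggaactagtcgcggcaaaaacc
Apoe, chr7:19699189-19699438, minus strand: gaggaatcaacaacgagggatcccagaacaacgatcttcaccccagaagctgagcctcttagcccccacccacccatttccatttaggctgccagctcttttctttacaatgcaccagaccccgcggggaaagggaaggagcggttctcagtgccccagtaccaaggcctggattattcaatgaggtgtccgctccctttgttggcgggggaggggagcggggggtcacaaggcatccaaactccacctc
Apoc2, chr7:19677942-19678191, minus strand: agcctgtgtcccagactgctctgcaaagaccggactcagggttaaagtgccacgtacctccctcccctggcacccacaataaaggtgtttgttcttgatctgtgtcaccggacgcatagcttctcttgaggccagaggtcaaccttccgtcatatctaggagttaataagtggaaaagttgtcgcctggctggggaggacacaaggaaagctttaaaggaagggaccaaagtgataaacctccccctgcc
Nr1h2, chr7:44553966-44554215, minus strand: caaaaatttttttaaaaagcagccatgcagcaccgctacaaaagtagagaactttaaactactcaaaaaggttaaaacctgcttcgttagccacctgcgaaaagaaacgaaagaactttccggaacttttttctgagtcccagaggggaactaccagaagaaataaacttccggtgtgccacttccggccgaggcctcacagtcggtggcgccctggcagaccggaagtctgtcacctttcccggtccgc
Mylip, chr13:45389492-45389741, plus strand: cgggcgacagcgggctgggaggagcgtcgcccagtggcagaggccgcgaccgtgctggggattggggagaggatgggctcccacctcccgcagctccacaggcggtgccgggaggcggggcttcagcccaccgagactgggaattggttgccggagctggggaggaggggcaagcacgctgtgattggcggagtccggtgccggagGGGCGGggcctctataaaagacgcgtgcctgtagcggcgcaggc

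RefSeq windows were held for 8 of the 9 genes, and those of Apoa1, Nr1h3 and Lpcat3 are not shown. The motifs were searched on both strands from 250 bases before to 50 bases after the start. The consensus LXR and RXR element, AGGTCA repeated in the same direction with 4 bases between, was in none of these genes' windows and in 0.0152% of all 32851 windows. The same element with its outer base left free, GGTCA repeated with 5 bases between, was also in none of them and in 0.0761% of all; this form was added after the windows had been read. A repeat of GGTCA with 4 bases between, which is 1 base too close to be a form of that element, was in none of them and in 0.0457% of all windows. With GGTTA in the first place the form with 5 bases between lay in the Abca1 window, at position −67 from the start on the opposite strand, and in 0.0487% of all windows. That form was added after the Abca1 window had been read, as the known LXR element of this promoter. The Abca1 window also held the E-box CACGTG, at position −147, a motif present in 7.15% of all windows. The GC box GGGCGG was found in the windows of Abca1, Mylip and Lpcat3 and in 35.7% of all windows, and the sterol element TCACNCCAC in none of these genes and 1.24% of all. The Apoe, Apoc2 and Nr1h2 windows held none of these letters. GC content before the start was 71.2% for Mylip, 61.6% for Abca1, 57.2% for Apoe, 52.0% for Apoc2 and 48.4% for Nr1h2, beside a median of 52.4% over all windows.

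The apolipoproteins were either listed at or near 0 or lower under OTX-015 and BBC1115. Apoa1 (chr9:46228580-46230466 on GRCm38) was listed at 0 RPKM in all 8 libraries, the 2 RVX-208 libraries included. A single read would have been worth about 0.0536 to 0.0884 RPKM for this gene, so any level under that was not detectable at this depth. The hepatocyte markers Ttr, Ahsg, Fgb, Fga, Serpina1a and Apoc3 were also listed at 0 in all 8 libraries.

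Apoe, which carries lipid between cells and is secreted mainly by liver and macrophages, lies at chr7:19696109-19699188. It was at 3.47 and 4.70 RPKM with RVX-208, 1.55 and 1.74 RPKM with OTX-015, and 2.08 and 2.20 RPKM with BBC1115, against 5.72 and 6.29 RPKM with DMSO. Both DMSO libraries were above all 6 treated ones, and the libraries of no pair of groups overlapped. The means were 1.65 ± 0.132 RPKM with OTX-015 and 6.00 ± 0.407 RPKM with DMSO (SD, n = 2 each), 3.65-fold lower with OTX-015. With BBC1115 the mean was 2.14 ± 0.083 RPKM, 2.80-fold lower than with DMSO. On the log2(RPKM + 1) scale Apoe fell by 1.40 with OTX-015 (SE 0.13, adjusted p = 4.57e-06) and by 1.16 with BBC1115 (SE 0.13, adjusted p = 9.34e-06, limma). With RVX-208 the mean was 4.08 ± 0.873 RPKM and the log2 difference from DMSO was −0.47 (95% interval −0.76 to −0.19), with an adjusted p of 0.148 and an unadjusted p of 0.004. These levels rest on an estimated 30 to 145 reads per library. The summed RPKM of the 11 macrophage markers was lower as well, 12.3 to 12.7 with OTX-015 and 13.3 to 13.4 with BBC1115, against 17.1 to 18.2 with DMSO, and 16.1 to 16.3 with RVX-208; Marco, Vsig4 and C1qa were listed at 0, and the part of such cells in the Apoe values was not tested.

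Apoc2, the cofactor that lipoprotein lipase needs to break down triglyceride, lies downstream of Apoe in the same cluster, at chr7:19671579-19677941. It was at 19.8 and 20.4 RPKM with RVX-208, 15.4 and 15.1 RPKM with OTX-015, and 17.4 and 13.1 RPKM with BBC1115, against 26.7 and 22.2 RPKM with DMSO. The DMSO libraries were again above every treated library, and the BBC1115 libraries lay on either side of the OTX-015 ones. On the log2(RPKM + 1) scale Apoc2 fell by 0.64 with OTX-015 (SE 0.13, adjusted p = 0.00117) and by 0.66 with BBC1115 (SE 0.13, adjusted p = 0.000671). With RVX-208 the log2 difference was −0.26 (95% interval −0.54 to 0.02, adjusted p = 0.305). GENCODE places a same-strand transcript unit, Gm44805, over Apoc2 exons; it has no row of its own in the table, and reads of the pair cannot be told apart. The ratio of Apoe to Apoc2 RPKM was 0.175 and 0.230 with RVX-208, 0.101 and 0.115 with OTX-015, and 0.120 and 0.169 with BBC1115, against 0.214 and 0.284 with DMSO.

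The other apolipoproteins were near or at 0. None of 13 listed passed the filter, and Apoa2, Apoa4, Apoa5, Apoc3, Apoc4 and Apoh were listed at 0 in all 8 libraries. Apoc1, which lies between Apoe and Apoc2, was at 0.763 and 0.318 RPKM with RVX-208, 0 and 0 with OTX-015, and 0.322 and 0 with BBC1115, against 0 and 0 with DMSO. Apon reached 0.717 and 1.19 RPKM with BBC1115, against 0.111 and 0.443 RPKM with DMSO. Apoe and Apoc2 were thus the apolipoprotein genes among those listed that could be tested.

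**Figure D1:**
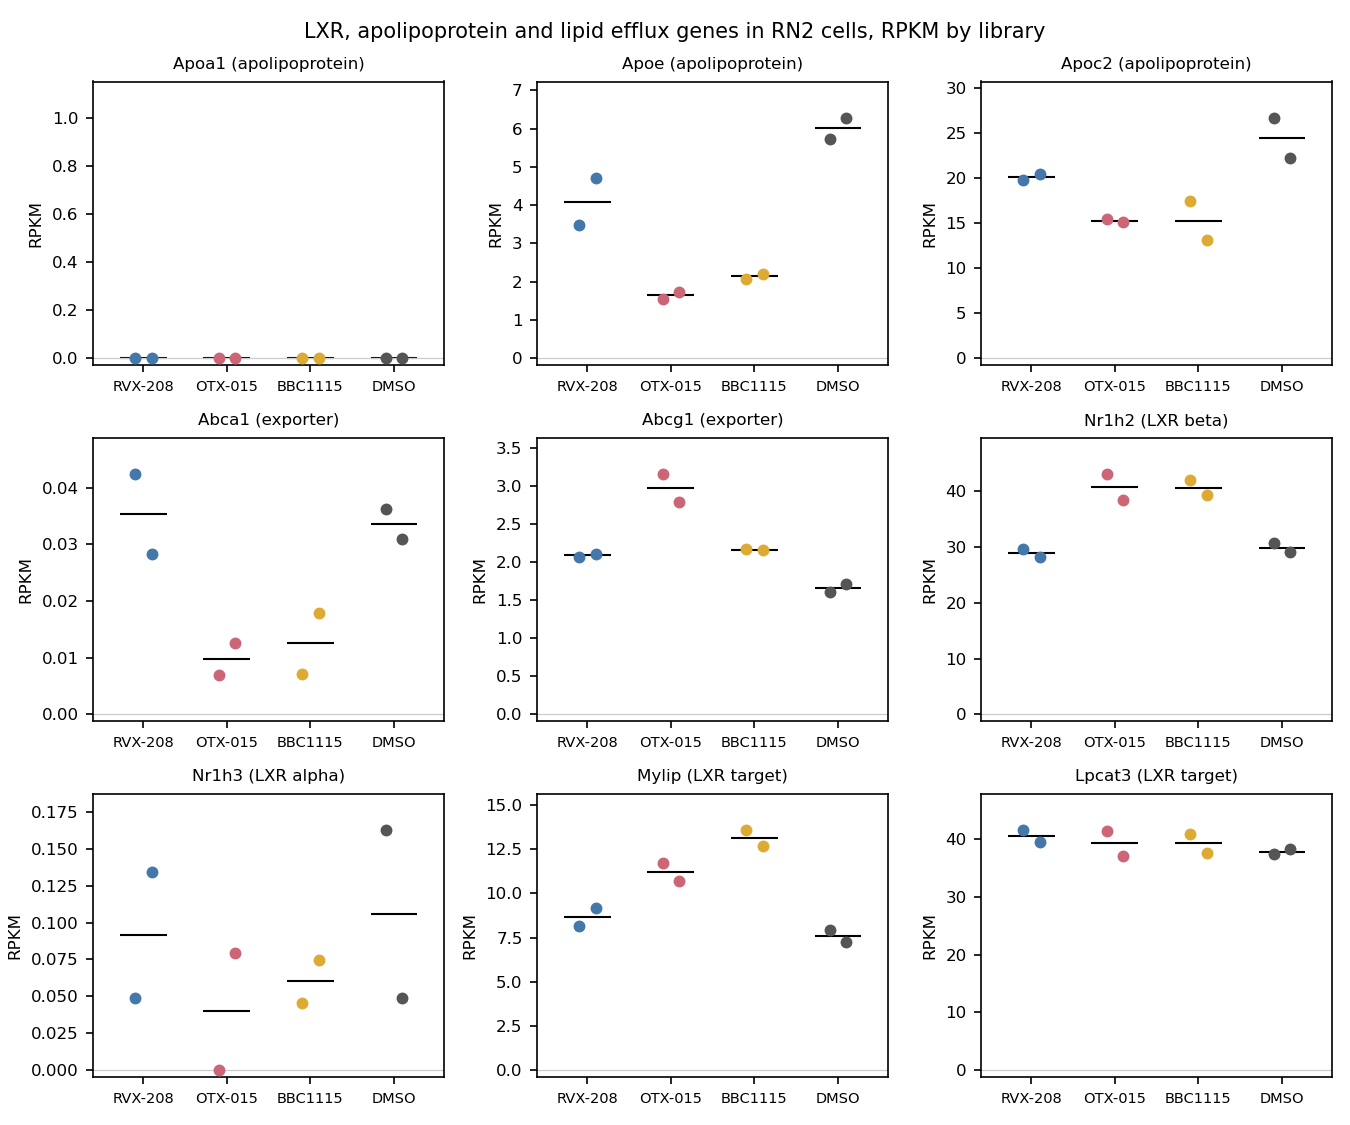
RPKM (vertical axis, linear, from 0) of each of the 9 genes in the 8 libraries; points are libraries, horizontal bars are means of 2, and groups run from RVX-208, OTX-015 and BBC1115 to DMSO. Apoe and Apoc2 are highest with DMSO, Nr1h2 is near 40 RPKM with OTX-015 and BBC1115 and near 30 RPKM with RVX-208 and DMSO, and Apoa1 is listed at 0 throughout.

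The sterol exporters differed in level: Abcg1 could be tested and Abca1 could not. Abcg1, which passes cholesterol to high-density lipoprotein, lies at chr17:31057675-31117988. It was at 2.07 and 2.11 RPKM with RVX-208, 3.16 and 2.79 RPKM with OTX-015, and 2.17 and 2.15 RPKM with BBC1115, against 1.60 and 1.71 RPKM with DMSO. Every treated library was above both DMSO libraries, and the OTX-015 libraries were above all others. Abcg1 rose by 0.58 on the log2(RPKM + 1) scale with OTX-015 (SE 0.11, adjusted p = 0.000653), a 1.80-fold higher mean RPKM. With BBC1115 the log2 difference from DMSO was 0.25 (95% interval 0.02 to 0.49), and its adjusted p of 0.0501 missed the threshold of 0.05; over the alternatives it ran from 0.000146 to 0.173. With RVX-208 it was 0.22 (95% interval −0.02 to 0.45, adjusted p = 0.305).

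Abca1, which loads cholesterol onto free apolipoprotein A1, lies at chr4:53030787-53159895 and was near 0 in every group. Its RPKM was 0.0425 and 0.0283 with RVX-208, 0.00692 and 0.0126 with OTX-015, and 0.00718 and 0.0178 with BBC1115, against 0.0362 and 0.0310 with DMSO. That is about 5 and 4 reads with RVX-208, 1 and 2 with OTX-015, and 1 and 3 with BBC1115, against 7 and 4 reads with DMSO. The OTX-015 and BBC1115 libraries were below the RVX-208 and DMSO ones. In a fit without the filter its adjusted p was 0.0545 for OTX-015 against DMSO and 0.0606 for BBC1115 against DMSO; it was 0.0499 for BBC1115 against RVX-208, a log2(RPKM + 1) difference of −0.032 on those few reads.

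Of 16 other ABCA and ABCG transporters, 4 passed the filter. With each of OTX-015 and BBC1115 1 of these was called, beside 64.3% and 75.6% of all genes. Abca3, a phospholipid transporter of lung surfactant, was the 1 gene called higher with OTX-015, at 11.9 and 10.9 RPKM against 6.64 and 8.73 RPKM with DMSO (log2 0.52, adjusted p = 0.00587). Abca7, a lipid transporter close to ABCA1, was the 1 called lower with BBC1115, at 9.85 and 12.2 RPKM against 12.9 and 17.6 RPKM with DMSO (log2 −0.42, adjusted p = 0.0171). The median log2 difference of the 4 with OTX-015 was 0.21, beside −0.13 over all genes. It was 0.46 without the second DMSO library and −0.03 without the first, beside −0.12 and −0.131 over all genes. The Abca3 call was lost without the filter (adjusted p = 0.0794) and without the first OTX-015 library (adjusted p = 0.0593). The Abca7 call was lost under upper-quartile scaling (adjusted p = 0.278), without the second DMSO library (adjusted p = 0.153) and without the first BBC1115 library (adjusted p = 0.104). Abca5, too low for the filter and named after its values were seen, was at 0.388 and 0.315 RPKM with OTX-015 and 0.492 and 0.474 RPKM with BBC1115, against 0.0323 and 0.0387 RPKM with DMSO. Its 4 OTX-015 and BBC1115 libraries were above its 4 RVX-208 and DMSO libraries. Abcg2, also below the filter, went the other way, averaging 0.295 and 0.152 RPKM, against 0.86 RPKM with DMSO. A fit of all 16 without the filter called 2 higher and 2 lower with OTX-015, and 3 higher and 3 lower with BBC1115. That fit called 26.6% and 36.8% of all genes in either direction, so these counts are not read as particular to the list.

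The receptors were represented by LXRβ. Nr1h2, which encodes it, lies at chr7:44549616-44553951 and was at 29.7 and 28.2 RPKM with RVX-208, 43.2 and 38.4 RPKM with OTX-015, and 42.0 and 39.4 RPKM with BBC1115, against 30.7 and 29.1 RPKM with DMSO. The OTX-015 and BBC1115 libraries overlapped each other and were above the RVX-208 and DMSO libraries, which also overlapped. Nr1h2 rose by 0.44 on the log2(RPKM + 1) scale with OTX-015 (SE 0.09, adjusted p = 0.00126) and by 0.43 with BBC1115 (SE 0.09, adjusted p = 0.000885). With RVX-208 the difference was −0.04 (95% interval −0.24 to 0.15, adjusted p = 0.806). Nr1h3 (chr2:91184061-91202834), which encodes LXRα, the form known from liver and macrophages, was at 0.0489 and 0.134 RPKM with RVX-208, 0 and 0.0796 RPKM with OTX-015, and 0.0453 and 0.0749 RPKM with BBC1115, against 0.163 and 0.0489 RPKM with DMSO. These are about 0 to 6 reads per library, the groups overlap, and no difference was detectable at this depth.

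Mylip and Lpcat3, both known LXR targets, gave different results. Mylip, at chr13:45389742-45412022, was at 8.15 and 9.14 RPKM with RVX-208, 11.7 and 10.7 RPKM with OTX-015, and 13.6 and 12.7 RPKM with BBC1115, against 7.95 and 7.25 RPKM with DMSO. The 4 groups did not overlap, and the order was BBC1115, OTX-015, RVX-208 and DMSO. Mylip rose by 0.50 on the log2(RPKM + 1) scale with OTX-015 (SE 0.10, adjusted p = 0.00128) and by 0.72 with BBC1115 (SE 0.10, adjusted p = 5.92e-05), means 1.47- and 1.73-fold those with DMSO. The RVX-208 difference was 0.16 (95% interval −0.06 to 0.39, adjusted p = 0.392).

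Lpcat3, at chr6:124663027-124704418, was the highest of the 9 genes in DMSO cells, above 89.6% of all genes of the table. It was at 41.6 and 39.5 RPKM with RVX-208, 41.4 and 37.0 RPKM with OTX-015, and 40.9 and 37.5 RPKM with BBC1115, against 37.3 and 38.2 RPKM with DMSO. The OTX-015 libraries lay on either side of the DMSO ones, and the lower BBC1115 library lay between them. The log2(RPKM + 1) difference from DMSO was 0.10 with RVX-208 (95% interval −0.09 to 0.29), 0.05 with OTX-015 (−0.14 to 0.24) and 0.05 with BBC1115 (−0.14 to 0.25), with adjusted p of 0.54, 0.626 and 0.595. Upper-quartile scaling turned these last 2 into calls in the limma fit, at 0.24 (adjusted p = 0.00805) with OTX-015 and 0.31 (adjusted p = 0.00161) with BBC1115. So did quantile normalization, at 0.24 (adjusted p = 0.00571) and 0.28 (adjusted p = 0.00232). The TPM scale called the OTX-015 difference, at 0.24 (adjusted p = 0.0163). Lpcat3 shares exon sequence with Emg1 on the opposite strand, and the sources used here do not give the strand setting of the counting. Emg1 averaged 53.6 ± 1.96 RPKM with OTX-015 and 46.7 ± 3.64 RPKM with BBC1115, against 114 ± 10.3 RPKM with DMSO (SD, n = 2 each); its part in the Lpcat3 values was not tested.

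Counted over the 6 genes that passed the filter, with OTX-015 3 were called higher (Abcg1, Nr1h2 and Mylip) and 2 lower (Apoe and Apoc2) than DMSO. Of all 9975 genes kept, 24.2% were called higher and 40.0% lower in that comparison, so a count of 5 in 6 is near the share of 64.3% called in either direction and is not read as particular to these genes. BBC1115 called 2 higher (Nr1h2 and Mylip) and 2 lower (Apoe and Apoc2) than DMSO, beside 26.4% of all genes called higher and 49.3% lower. With RVX-208, 0 of 6 were called against DMSO by limma, beside 0.170% of all genes, or 17; at an unadjusted p under 0.05 there were 1 of these genes (Apoe) and 1820 of all. Leaving out 1 library kept the count at 0 of 6 each time, while that over all genes was 29 and 1046 without the first and second DMSO library, 15 and 8 without the first and second RVX-208 library, 6 without either OTX-015 library, and 88 and 74 without the first and second BBC1115 library. The 3 comparisons share the DMSO libraries.

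The share of all genes called lower depended on scaling. OTX-015 called 2418 genes higher and 3992 lower than DMSO, but 3561 higher and 3066 lower after upper-quartile scaling; BBC1115 called 2629 higher and 4915 lower, but 3743 higher and 3960 lower after it. The median log2 difference of all kept genes was −0.134 with OTX-015 and −0.249 with BBC1115 as deposited, and 0.035 and −0.018 after that scaling. Relative to the median as deposited, the difference of Apoe was −1.27 with OTX-015 and −0.91 with BBC1115, that of Apoc2 −0.51 and −0.41, that of Abcg1 0.71 and 0.50, that of Nr1h2 0.57 and 0.68, that of Mylip 0.64 and 0.97, and that of Lpcat3 0.19 and 0.30. The 5 OTX-015 calls and the 4 BBC1115 calls against DMSO held their direction and threshold in each of the 18 alternatives that tested them. The summed RPKM of the 9 leukaemia markers was also lower, 1500 to 1680 with OTX-015 and 1410 to 1610 with BBC1115, against 2310 to 2510 with DMSO, and its part in these results was not tested. In bulk RNA, fewer cells of a type and less RNA per cell cannot be told apart.

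**Figure D2:**
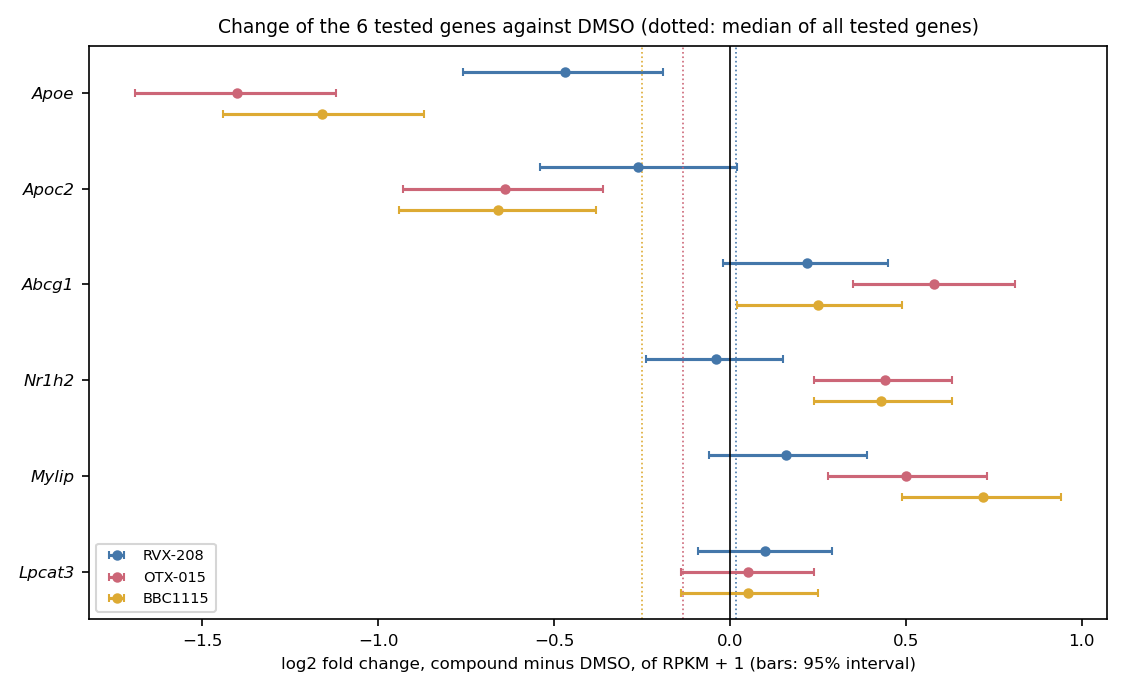
Log2(RPKM + 1) difference from DMSO (horizontal axis) of the 6 genes that passed the filter, for RVX-208, OTX-015 and BBC1115, with 95% intervals of the limma fit; dotted lines mark the median of all kept genes in each comparison. Apoe and Apoc2 lie below 0 and Nr1h2 and Mylip above 0 with OTX-015 and BBC1115, and no RVX-208 difference passed an adjusted p of 0.05.

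Set against each other, BBC1115 and OTX-015 differed in 1 of the 6 genes, beside 43.9% of all genes called in that comparison. Abcg1 averaged 2.16 ± 0.0173 RPKM with BBC1115 and 2.98 ± 0.258 RPKM with OTX-015 (SD, n = 2 each), a log2 difference of −0.33 (95% interval −0.56 to −0.10, adjusted p = 0.0273). The call was lost without the first OTX-015 library (adjusted p = 0.114) and without either BBC1115 library (adjusted p = 0.112 and 0.118). It was also lost under quantile normalization (−0.10, adjusted p = 0.308), where Apoe (0.45, adjusted p = 0.0173) and Mylip (0.37, adjusted p = 0.0143) were called higher with BBC1115; Mylip was also called under upper-quartile scaling (0.28, adjusted p = 0.0212). As deposited the other 5 were not called, with 95% intervals of −0.04 to 0.53 for Apoe, −0.30 to 0.27 for Apoc2, −0.20 to 0.19 for Nr1h2, −0.01 to 0.44 for Mylip and −0.19 to 0.19 for Lpcat3.

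BBC1115 and RVX-208 differed in 4 of the 6, beside 73.5% of all genes. Nr1h2 (log2 0.48, adjusted p = 0.000469) and Mylip (0.55, adjusted p = 0.000463) were higher with BBC1115, and Apoe (−0.68, adjusted p = 0.000587) and Apoc2 (−0.40, adjusted p = 0.0158) were lower. The Apoc2 call was lost without the second RVX-208 library (adjusted p = 0.0624), without the second BBC1115 library (adjusted p = 0.176) and under upper-quartile scaling (adjusted p = 0.224). Under quantile normalization neither apolipoprotein was called, at −0.26 for Apoe (adjusted p = 0.0797) and −0.11 for Apoc2 (adjusted p = 0.458); Abcg1 (0.43, adjusted p = 0.0013) and Lpcat3 (0.14, adjusted p = 0.0464) were called instead, so that 4 were higher and 0 lower. As deposited, Abcg1 was not called, with a 95% interval of −0.20 to 0.27. RVX-208 and OTX-015 differed in 5 of the 6, beside 55.7% of all genes. The count was 4 without the filter, under upper-quartile scaling and under quantile normalization, where the Apoc2 call was lost (adjusted p = 0.185, 0.152 and 0.177, limma). As deposited and with the filter, Apoe (log2 0.93, adjusted p = 0.000132) and Apoc2 (0.38, adjusted p = 0.0264) were higher with RVX-208. Abcg1 (−0.36, adjusted p = 0.0134), Nr1h2 (−0.48, adjusted p = 0.000858) and Mylip (−0.34, adjusted p = 0.0156) were lower. This count was 2 without the first RVX-208 library, 3 without the second and 2 without the first OTX-015 library. The Apoc2 call was lost without any 1 of these 4 libraries (adjusted p between 0.0693 and 0.123), while Apoe and Nr1h2 stayed called in each case.

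The partners of LXR were next examined, since LXR binds DNA with an RXR. Rxra, the RXR of liver and myeloid cells, was at 1.98 and 1.75 RPKM with RVX-208, 0.741 and 0.689 RPKM with OTX-015, and 0.473 and 0.428 RPKM with BBC1115, against 2.12 and 2.35 RPKM with DMSO. Rxrb was the more abundant RXR at 26.9 and 24.5 RPKM with RVX-208, 21.5 and 18.2 RPKM with OTX-015, and 18.5 and 17.8 RPKM with BBC1115, against 29.0 and 28.9 RPKM with DMSO. Rxrg was listed at 0. Rxra fell 3.13-fold in mean RPKM with OTX-015 (log2 −0.92, adjusted p = 3.24e-05) and 4.96-fold with BBC1115 (log2 −1.16, adjusted p = 2.47e-06). Rxrb fell 1.46-fold (adjusted p = 0.00068) and 1.60-fold (adjusted p = 9.24e-05), so the ratio of Rxrb to Rxra RPKM was 29.1 and 26.5 with OTX-015 and 39.1 and 41.6 with BBC1115, against 13.7 and 12.3 with DMSO; with RVX-208 it was 13.6 and 14.0. Under both compounds Nr1h2 was thus higher and both RXR genes lower than with DMSO.

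Of 18 partner and cofactor genes, 16 passed the filter. OTX-015 called 6 higher and 6 lower, with a median log2 difference of 0.00 beside −0.13 over all genes, and BBC1115 called 4 higher and 9 lower, with a median of −0.49 beside −0.25. Of all genes kept, 64.3% and 75.6% were called in either direction, so these counts are not read as particular to the list. Under quantile normalization the BBC1115 counts were 6 higher and 7 lower. Without the first and the second DMSO library the medians were −0.17 and 0.15 with OTX-015 and −0.58 and −0.30 with BBC1115; without the first and the second OTX-015 library that of OTX-015 was −0.09 and 0.09. Sirt1, a deacetylase known to act on LXR, averaged 30.0 ± 1.68 RPKM with OTX-015 and 55.8 ± 1.88 RPKM with BBC1115, against 11.1 ± 0.208 RPKM with DMSO (SD, n = 2 each), and rose 2.71- and 5.04-fold (adjusted p = 2.23e-07 and 1.96e-09). Tbl1xr1, a part of the NCoR corepressor complex, averaged 7.13 ± 0.3 and 2.19 ± 0.106 RPKM, against 15.9 ± 0.643 RPKM with DMSO, and fell 2.23- and 7.27-fold (adjusted p = 4.13e-06 and 3.3e-09). Its relative Tbl1x (log2 −1.36, adjusted p = 9.98e-06) and the coactivator Ncoa6 (log2 −1.25, adjusted p = 7.17e-06) fell with BBC1115. With OTX-015 the Tbl1x difference of −0.49 was called (limma, adjusted p = 0.0164). That call was lost under upper-quartile scaling (adjusted p = 0.13), on the TPM scale (0.195) and without the filter (0.16). It was also lost without either OTX-015 library (differences of −0.53 and −0.45) and without the second DMSO library (−0.23). The Ncoa6 difference with OTX-015, −0.30, was not called (adjusted p = 0.0708). RVX-208 called 0 of the 16, and 0 of the tested genes of each of the other lipid lists. With the second DMSO library left out, however, calls appeared in several of these lists, as they did over all genes. The RVX-208 medians of the lists with calls were then 0.32 for these 16, 0.25 for other LXR targets and 0.48 for other transporters. They were 0.17 for oxysterol and cholesteryl ester genes, 0.11 for uptake genes and 0.02 for acyltransferases, beside 0.025 over all genes. With the first DMSO library left out instead, the medians in that order were 0.05, 0.05, 0.01, 0.02, 0.02 and 0.04, beside 0.006. An acyltransferase was called lower without the second DMSO library and also without either BBC1115 library.

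**Figure D3:**
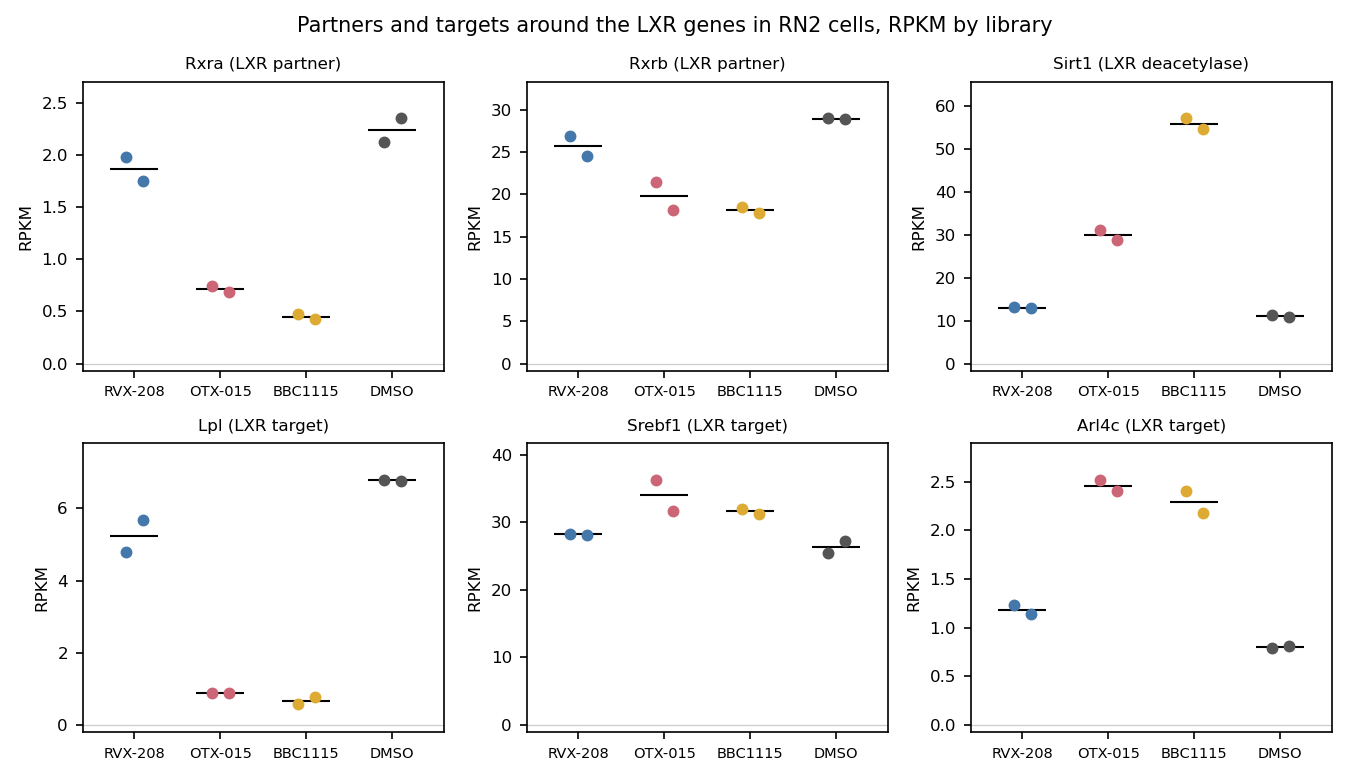
RPKM (vertical axis, linear, from 0) of Rxra, Rxrb, Sirt1, Lpl, Srebf1 and Arl4c in the 8 libraries; points are libraries and horizontal bars are means of 2. Rxra, Rxrb and Lpl are lower and Sirt1 and Arl4c higher with OTX-015 and BBC1115 than with DMSO, while the RVX-208 libraries lie nearer to the DMSO ones than those of the other compounds do.

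Other LXR target genes went both ways. Of 18 listed, 11 passed the filter. OTX-015 called 4 higher and 2 lower (median log2 difference 0.27 beside −0.13 over all genes), and BBC1115 called 6 higher and 2 lower (0.42 beside −0.25). These counts lie near the 64.3% and 75.6% of all genes called in either direction and are not read as particular to the list. Without the first DMSO library the medians were 0.04 with OTX-015 and 0.20 with BBC1115, whose counts were then 4 higher and 3 lower; without the second BBC1115 library that of BBC1115 was 0.25, with 4 higher and 2 lower. Lpl, lipoprotein lipase, the enzyme that apolipoprotein C2 switches on, was at 4.80 and 5.69 RPKM with RVX-208, 0.887 and 0.892 RPKM with OTX-015, and 0.582 and 0.777 RPKM with BBC1115, against 6.79 and 6.76 RPKM with DMSO. It fell 7.62-fold with OTX-015 (log2 −2.04, adjusted p = 1.32e-07) and 9.96-fold with BBC1115 (log2 −2.21, adjusted p = 2.37e-08). Arl4c, a small GTPase induced by LXR, was at 2.52 and 2.40 RPKM with OTX-015 and 2.40 and 2.18 RPKM with BBC1115, against 0.789 and 0.809 RPKM with DMSO, and rose 3.07- and 2.86-fold (adjusted p = 2.06e-05 and 1.89e-05). Beside Lpl the gene called lower was Smpdl3a, a phosphodiesterase, at log2 differences of −0.74 (adjusted p = 0.000444) and −0.75 (adjusted p = 0.000233); it was named after its values were seen.

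Srebf1, the main lipogenic regulator under LXR, was at 28.3 and 28.2 RPKM with RVX-208, 36.3 and 31.7 RPKM with OTX-015, and 32.0 and 31.3 RPKM with BBC1115, against 25.4 and 27.3 RPKM with DMSO. It rose by 0.35 on the log2 scale with OTX-015 (adjusted p = 0.00486) and by 0.25 with BBC1115 (adjusted p = 0.0221), the second call being lost without the first DMSO library (adjusted p = 0.11) without either BBC1115 library (0.0882 and 0.058) and without the filter (0.0512). Fasn, fatty acid synthase, averaged 96.8 ± 8.42 RPKM with OTX-015 and 202 ± 31.5 RPKM with BBC1115, against 58.6 ± 14.7 RPKM with DMSO, and rose 1.65- and 3.44-fold (adjusted p = 0.00163 and 1.12e-06); without the filter its OTX-015 call was lost (adjusted p = 0.0651). Scd2, a fatty acid desaturase, averaged 189 ± 15.9 and 331 ± 6.61 RPKM, against 140 ± 7.95 RPKM with DMSO, and rose 1.35- and 2.36-fold (adjusted p = 0.0015 and 2.74e-07). Each of these genes is also driven by sterol response element binding proteins (SREBPs), so the list is not specific to LXR.

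Genes of lipoprotein uptake, the process that MYLIP limits, were counted next. Among 16 receptor and uptake genes, of which 13 passed the filter, OTX-015 called 4 higher and 5 lower and BBC1115 4 higher and 6 lower. These 9 and 10 of 13 lie near the 64.3% and 75.6% of all genes called, and the medians of −0.04 and −0.11 stood beside −0.13 and −0.25 over all genes. Under quantile normalization each called 7 higher and 5 lower. Without the second DMSO library the OTX-015 median was 0.06, and without the second OTX-015 library it was 0.09; without the first DMSO library it was −0.10, and without the first OTX-015 library −0.07. Lrpap1, a chaperone of lipoprotein receptors, rose 1.89- and 2.92-fold (means 40.9 ± 2.19 and 63.1 ± 1.98 RPKM, against 21.6 ± 1.21 RPKM with DMSO). Olr1, a receptor for oxidised LDL, fell 2.87- and 4.27-fold (9.29 ± 0.311 and 6.25 ± 0.512, against 26.7 ± 1.24 RPKM). Lrp1, an endocytic receptor that takes up apolipoprotein E, was at 0.208 and 0.264 RPKM with OTX-015 and 0.152 and 0.15 RPKM with BBC1115, against 1.21 and 1.80 RPKM with DMSO, and fell by 1.01 and 1.11 on the log2(RPKM + 1) scale (adjusted p = 5.29e-05 and 1.29e-05). Pdgfrb, the fibroblast marker that reached 1 RPKM, moved alongside, averaging 0.601 RPKM with OTX-015 and 0.252 RPKM with BBC1115, against 3.62 RPKM with DMSO. It made up most of the sum of the 5 fibroblast markers. That sum was 0.437 to 0.849 RPKM with OTX-015 and 0.264 to 0.272 RPKM with BBC1115, against 3.42 to 3.88 RPKM with DMSO. Col1a2, Col3a1 and Dcn were listed at 0 in all 8 libraries, and Col1a1 reached at most 0.0607 RPKM. Whether any fibroblasts were present, and their part in the Lrp1 and Lpl values, was not tested.

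Genes of the SREBP2 axis, which are cholesterol synthesis enzymes and the regulators of SREBP2, were called higher in 9 of 12 cases and lower in 0 with OTX-015, and higher in 9 and lower in 2 with BBC1115. Their median log2 difference was 0.42 with OTX-015 and 1.51 with BBC1115, beside −0.13 and −0.25 over all genes. Of all genes kept, 24.2% were called higher and 40.0% lower with OTX-015, and 26.4% and 49.3% with BBC1115. The OTX-015 count of 9 higher became 6 without the filter and 7 in a fit of only the OTX-015 and DMSO libraries. With 1 of those libraries left out, the OTX-015 median of these genes ran from 0.34 to 0.52. Insig1, which holds SREBPs in the endoplasmic reticulum, averaged 58.1 ± 4.39 RPKM with OTX-015 and 357 ± 1.94 RPKM with BBC1115, against 33.6 ± 0.275 RPKM with DMSO. Idi1, which makes the isoprenoid building block, rose 2.09- and 4.44-fold, and Lss, which closes the sterol ring, rose 1.63- and 3.83-fold. The 2 that fell with BBC1115, named after their values were seen, were Insig2 (log2 −0.76, adjusted p = 6.45e-05) and Scap (−0.47, adjusted p = 0.00455), which hold SREBP2 in place and carry it to its activation; under upper-quartile scaling 1 fell. BBC1115 was higher than OTX-015 in 9 of the 12 and lower in 1, beside 43.9% of all genes called in either direction in that comparison.

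Oxysterol and cholesteryl ester genes, which make LXR ligands or store and move sterol, were called higher in 7 and lower in 2 of 13 tested with each of OTX-015 and BBC1115, of 20 listed. These 9 of 13 also lie near the shares of all genes called, the medians being 0.30 and 0.34 beside −0.13 and −0.25 over all genes, and under quantile normalization each called 10 higher and 2 lower. The oxysterol-forming enzyme Ch25h was listed at 0 in all 8 libraries, and Cyp27a1 was at 0.0412 RPKM in 1 RVX-208 library and 0 in the rest. Stard5, a sterol carrier, averaged 9.79 ± 0.365 RPKM with OTX-015 and 13.1 ± 0.370 RPKM with BBC1115, against 3.11 ± 0.217 RPKM with DMSO, and rose 3.15- and 4.20-fold (adjusted p = 8.33e-07 and 4.38e-08). Osbpl5, a lipid transfer protein, fell by 0.77 and 1.31 on the log2(RPKM + 1) scale (adjusted p = 0.000221 and 1.84e-06). Stard4, another sterol carrier, rose 2.05-fold with BBC1115 (adjusted p = 1.1e-05); with OTX-015 its difference was 0.23 (adjusted p = 0.0959).

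Lpcat3 stood among 12 tested relatives that mostly fell. Of the 13 other lysophospholipid acyltransferases listed, OTX-015 called 2 higher and 8 lower, with a median log2 difference of −0.47 beside −0.13 over all genes, and BBC1115 called 2 higher and 9 lower, with a median of −0.94 beside −0.25. Of all genes kept, OTX-015 called 24.2% higher and 40.0% lower, and BBC1115 26.4% higher and 49.3% lower. Agpat2, which makes phosphatidic acid, averaged 11.0 ± 2.56 RPKM with OTX-015 and 4.62 ± 0.415 RPKM with BBC1115, against 23.8 ± 1.34 RPKM with DMSO, and fell 2.17- and 5.16-fold. Mboat1 averaged 2.95 ± 0.348 and 1.37 ± 0.235 RPKM, against 8.05 ± 0.152 RPKM, and fell 2.73- and 5.86-fold. The 2 called higher, again named after their values were seen, were Agpat4 (log2 0.53 with OTX-015 and 0.78 with BBC1115) and Mboat7 (0.29 and 0.22); without either OTX-015 library, or without either BBC1115 library, the count was 1 for that compound, as it was for both without the second DMSO library and for BBC1115 without the first. Lpgat1 fell 1.47- and 2.33-fold (adjusted p = 0.00053 and 7.6e-07). Lpcat2 fell 2.67-fold with BBC1115 (adjusted p = 1.82e-05); its OTX-015 call (log2 −0.36, adjusted p = 0.0326) was lost under upper-quartile scaling (adjusted p = 0.216), without the first DMSO library (0.239) and without either OTX-015 library (0.163 and 0.0702).

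**Figure D4:**
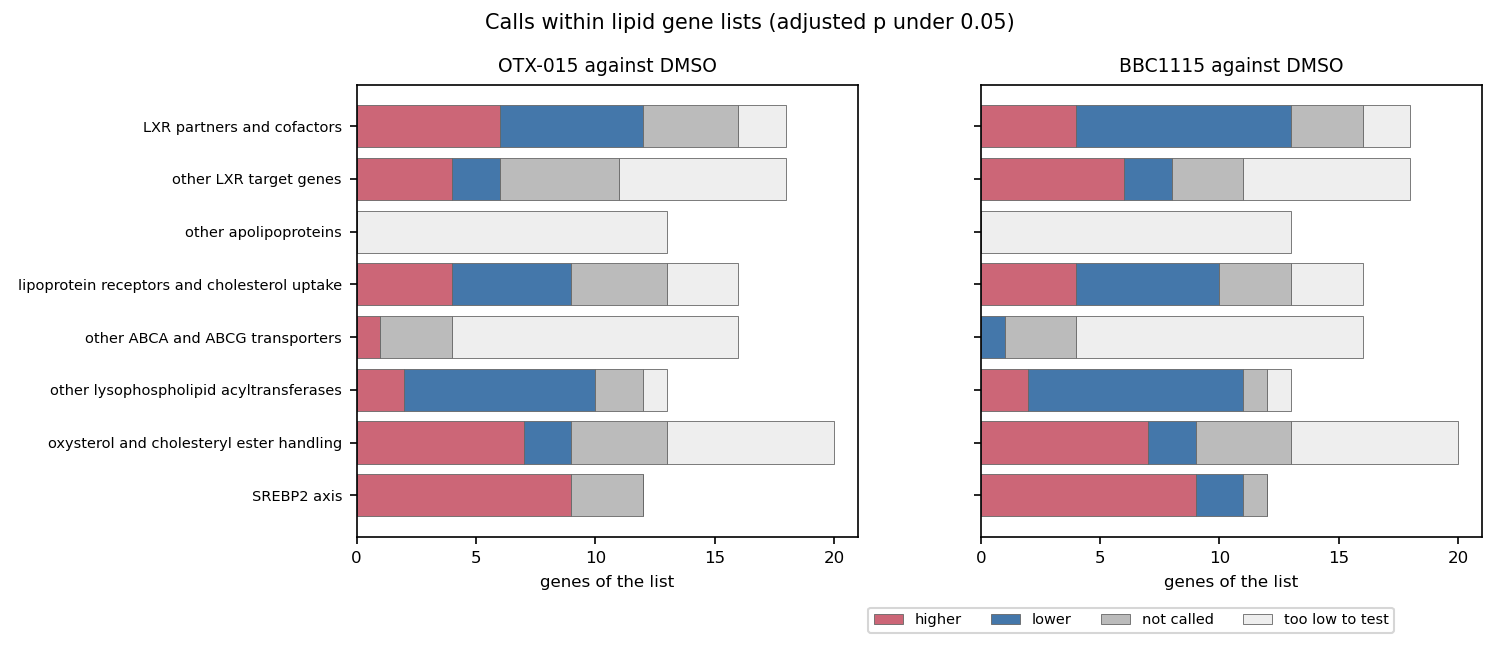
Number of genes (horizontal axis) called higher, called lower, not called or too low to test in each of 8 lipid gene lists, for OTX-015 against DMSO (left) and BBC1115 against DMSO (right). SREBP2 axis genes are mostly higher, lysophospholipid acyltransferases are mostly lower, and none of the 13 other apolipoproteins could be tested.

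Usual readouts of BET inhibition were read in the same libraries. Myc averaged 63.2 ± 1.37 RPKM with RVX-208, 3.74 ± 0.00612 RPKM with OTX-015 and 2.51 ± 0.357 RPKM with BBC1115, against 97.8 ± 2.72 RPKM with DMSO (SD, n = 2 each). It was called lower with each, at adjusted p of 0.0355, 1.9e-10 and 4.29e-11, but the RVX-208 call was lost under upper-quartile scaling (adjusted p = 0.0509), without either RVX-208 library (0.172 and 0.224) and without either OTX-015 library (0.12 and 0.12). Hexim1, which BET inhibitors raise, averaged 30.2 ± 0.776 RPKM with RVX-208, 122 ± 8.89 RPKM with OTX-015 and 190 ± 9.11 RPKM with BBC1115, against 23.3 ± 0.860 RPKM with DMSO. With RVX-208 its adjusted p was 0.123, and on the TPM scale 0.0203 (log2 0.45).

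Across the 8 libraries the 6 tested genes fell into patterns that are given as descriptions only, since the points share the 4 treatments. On log2(RPKM + 1), Pearson's r was 0.877 between Apoe and Apoc2 and 0.903 between Nr1h2 and Mylip. Apoe ran against Nr1h2 (r = −0.906), Abcg1 (−0.870) and Mylip (−0.862). Lpcat3 had r between −0.250 and 0.310 with the other 5. Among 7628 genes averaging at least 5 RPKM, the closest to Apoe were Nip7 (0.982), a ribosome biogenesis factor, and Fam136a (0.981). The closest to Apoc2 were Mrpl43 (0.997), a mitochondrial ribosomal protein, and Pdcd6 (0.994). For Nr1h2 they were Rogdi (0.988) and the tetraspanin Cd81 (0.988), and for Mylip Gucd1 (0.997) and Cyb5r3 (0.992), an electron carrier of lipid desaturation. For Abcg1 they were Zscan26 (0.992) and Arl8a (0.992), and for Lpcat3 Kctd2 (0.938) and Coq9 (0.933).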

How the data were processed

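RPKM values per gene symbol for 8 libraries of RN2 cells were deposited by the authors in 1 table; per the labels' protocols, total RNA went into a directional mRNA kit. Per the submitters' processing notes, STAR, Cufflinks and the mm10 build were used; the sources used here do not give the annotation, the strand setting or the role of each tool. RPKM is relative to the total mapped reads and to transcript length, so a change in a few abundant genes shifts all others.

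All 8 libraries were fitted by group in limma 3.58.1 (R 4.3.3) on log2(RPKM + 1) with a variance trend, for genes with at least 1 RPKM in at least 2 libraries. The fit had 4 residual degrees of freedom. Tests were 2-sided, with Benjamini-Hochberg adjustment over all 9975 kept genes of each of 6 contrasts and a threshold of 0.05. Fold changes on this scale understate those of low genes; folds of RPKM are ratios of group means. The scripts were tested on simulated data. No count test was run, since the values are RPKM.

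The genes and lists were chosen with earlier results of these data known. Up to 4 called genes with the largest change per list are named, with Srebf1, Rxra, Rxrb, Myc and Hexim1 named whatever their change; a few genes this rule names are not reported here. Likeness is the highest Pearson correlation over 8 libraries. Depth was estimated from values above 0 and under 0.15 RPKM of genes with a single transcript of over 2500 nt. Each value was turned into the library size at which it would be 1 read, and the most frequent size was taken. Between 28 and 42 genes per library lay at that size, so read numbers are approximate. Positions are from GENCODE M21 on GRCm38 and promoters from RefSeq. The 18 alternatives were other filters, pseudocounts, scalings, fits and leaving out each library. The pseudocount, the filter and the small number of libraries bound the precision.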

Additional observations from a re-analysis of the deposited data

How the results depend on the processing

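Under 18 alternatives, the count of the 6 tested genes called was 0 for RVX-208 against DMSO throughout, 4 to 6 for OTX-015 against DMSO, 4 to 6 for BBC1115 against DMSO and 3 to 4 for BBC1115 against RVX-208. For BBC1115 against OTX-015 the count was 1 and became 0 under a stricter filter of 5 RPKM, which drops Abcg1, 2 under upper-quartile scaling, 2 under quantile normalization, and 0 to 1 without 1 library. For RVX-208 against OTX-015 it was 5, and 2 to 5 without 1 library. It was 4 for this comparison under the stricter filter, without the filter, and under upper-quartile scaling and quantile normalization. Small differences that were not called changed sign. With upper-quartile scaling the log2 difference was 0.05 for Apoc2 and 0.07 for Nr1h2 (BBC1115 against OTX-015), 0.17 for Lpcat3 (BBC1115 against RVX-208, adjusted p = 0.0264) and −0.10 for Lpcat3 (RVX-208 against OTX-015). With quantile normalization the same 4 were 0.11, 0.02, 0.14 and −0.11. On the TPM scale it was −0.01 for Abcg1 (BBC1115 against RVX-208), 0.05 for Nr1h2 (RVX-208 against DMSO), −0.15 for Lpcat3 (BBC1115 against OTX-015) and −0.04 for Lpcat3 (RVX-208 against OTX-015). Without 1 library it ran from −0.21 to 0.18 for Apoc2 and −0.09 to 0.08 for Nr1h2 (BBC1115 against OTX-015), and for Lpcat3 from −0.03 to 0.13 (OTX-015 against DMSO), −0.01 to 0.11 (BBC1115 against DMSO), −0.11 to 0.01 (BBC1115 against RVX-208), −0.08 to 0.08 (BBC1115 against OTX-015) and −0.03 to 0.13 (RVX-208 against OTX-015). The cause was not tested in any of these.

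The replicate numbers were not tied to a shared culture or day by the labels. Deviations of same-numbered libraries correlated between −0.084 and 0.055 over 9975 genes, except 0.524 for BBC1115 against DMSO. A fit with the replicate block gave the same counts of 0, 5, 4, 4, 1 and 5 for RVX-208, OTX-015 and BBC1115 against DMSO, BBC1115 against RVX-208, BBC1115 against OTX-015 and RVX-208 against OTX-015; over all genes it called 33 in place of 17 for RVX-208 against DMSO. Depth limited Apoa1, Abca1 and Nr1h3, at 7 estimated reads or fewer per library.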

Other observations

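Neighbours of the apolipoprotein clusters were read after the data had been seen, as those within 50 kb. Beside Apoe on chromosome 7, Tomm40, a pore of the mitochondrial outer membrane, was at 67.9 and 72.9 RPKM with RVX-208, 37.5 and 31.2 RPKM with OTX-015, and 29.0 and 28.9 RPKM with BBC1115, against 92.2 and 80.7 RPKM with DMSO. It fell 2.52-fold with OTX-015 (log2 −1.31, adjusted p = 1.44e-06) and 2.99-fold with BBC1115 (log2 −1.54, adjusted p = 1.45e-07) in the limma fit. On the other side of the cluster, Relb, an NF-kB subunit, averaged 3.31 ± 0.071 RPKM with OTX-015 and 3.26 ± 0.0169 RPKM with BBC1115, against 1.82 ± 0.352 RPKM with DMSO (SD, n = 2 each), and rose by 0.62 and 0.60 on the log2 scale (adjusted p = 0.00112 and 0.000932). Clptm1, between Relb and Apoc2, averaged 34.1 ± 3.47 and 35.4 ± 0.276 RPKM, against 30.6 ± 1.29 RPKM with DMSO, and was not called. The direction of Apoe and Apoc2 was therefore shared by Tomm40 but by neither Clptm1 nor Relb. Of all genes kept, 40.0% were called lower with OTX-015 and 49.3% with BBC1115, so this is not read as particular to the region.

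Around Apoa1 on chromosome 9, Apoc3, Apoa4 and Apoa5 were listed at 0 in all 8 libraries while the flanking genes were measured. Zpr1 averaged 14.3 ± 0.233 RPKM with OTX-015 and 15.2 ± 0.935 RPKM with BBC1115, against 23.7 ± 0.439 RPKM with DMSO, and fell 1.66- and 1.56-fold (adjusted p = 3.59e-05 and 4.86e-05). Sik3 fell 1.51-fold with BBC1115 (5.65 ± 1.13 RPKM, against 8.54 ± 1.29 RPKM with DMSO, adjusted p = 0.00622) and was not called with OTX-015 (9.60 ± 1.27 RPKM, adjusted p = 0.365).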
